A study of Mus musculus with 8 samples.

Results

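Antibody-secreting cells are the plasmablasts and plasma cells that B cells become when they turn to making antibody in bulk. They carry large amounts of heavy and light chain mRNA, of the joining chain that links IgM and IgA into polymers, and of the machinery of the secretory pathway. The genes described here are 8 that mark these cells, out of 12393 genes measured on 8 arrays: Jchain (joining chain), Ighm (the constant region of the IgM heavy chain), Igk (the kappa light chain locus), Igkv8-30 (a kappa variable segment), Sdc1 (the surface proteoglycan CD138), and the transcription factor genes Xbp1, Prdm1 and Irf4. They were chosen because several of them were brighter in normal LSK cells than in leukaemic cells of the same series, so their differences from LSK cells are given as a description, with no test. In all, 28 probe sets are annotated to 1 of these genes alone, and each gene is represented by the one with the highest mean over the 8 arrays.

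RNA was measured in leukaemia-initiating cells (LICs) and in normal marrow cells of C57/BL6 mice labelled 12 weeks old. Ezh2 KO LICs (2 arrays) are labelled knockout for Ezh2, the methyltransferase of Polycomb repressive complex 2, and WT LICs (3 arrays) wild type. Both were GFP+, Lin-, Sca1+ and Kit+ and were sorted from a retroviral mouse model of chronic myeloid leukaemia 14 days after bone marrow transplantation. LSK cells (3 arrays) were Lin-, Sca1+ and Kit+ marrow cells, the fraction that holds stem and multipotent progenitor cells, and the labels name no transplantation for them. Every sample went through the sorter in a double sort. The labels do not say how Ezh2 was deleted, whether mice were male or female, or whether marrow was pooled. Because the arrays measure bulk RNA, fewer cells of a type and less RNA per cell cannot be told apart.

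Plasma cell identity rests on a small circuit. Irf4 and Prdm1, which encodes Blimp-1, switch off the B cell programme, Xbp1 enlarges the endoplasmic reticulum, and the octamer-binding factors with their coactivator Pou2af1 act at immunoglobulin genes. Xbp1 and Irf4 are also expressed in many other blood cells, whereas rearranged antibody chains belong to the B lineage. Whether the antibody chain RNA read here came from rearranged genes was not tested.

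Ezh2 was at 8.94 and 9.55 (log2 intensity) in Ezh2 KO LICs, between 11.26 and 11.44 in WT LICs and between 10.77 and 11.07 in LSK cells. Its difference between Ezh2 KO and WT LICs was -2.10 on the log2 scale (SE 0.21, limma adjusted p = 0.00985, and 0.055 with the compared groups fitted alone). Ezh2 signal thus remained on both Ezh2 KO arrays, and what transcript gave it was not tested. Of the genes behind the sort, Kit was at 9.99 and 10.35 in Ezh2 KO LICs, 9.69 to 9.81 in WT LICs and 10.90 to 11.05 in LSK cells, while Ly6a (Sca1) was not analysed here. Cd34, which is not named in the sort, lay between 11.62 and 12.31 on all 8 arrays. Some arrays stood apart. WT LIC repeat 3 had Dntt, which encodes the terminal transferase of lymphoid progenitors, at 12.14, against 9.89 and 9.58 on the other WT LIC arrays, and Xist at 4.35, against 10.68 and 11.06. Xist was at 10.69 and 11.18 in Ezh2 KO LICs and 12.45 to 12.69 in LSK cells. The Y-linked Eif2s3y was at 9.25 and 9.80 in Ezh2 KO LICs and 9.21 to 9.70 in WT LICs, against 1.29 to 1.63 in LSK cells. All LIC arrays but WT LIC repeat 3 thus read high for both Xist and Eif2s3y, and LSK arrays for Xist alone. A difference in the sex of the cells and the difference between LICs and LSK cells cannot be told apart. Dntt, Xist and Eif2s3y were chosen after their values were seen.

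The members were divided by whether their LSK arrays stood clear of the LIC arrays, a difference that also served to choose them. For Jchain, the antibody chain genes and Sdc1, 5 genes in all, every LSK array was above every LIC array, as was the case for 8.67% of all genes. Sdc1 showed it by a margin of only 0.28 on the log2 scale and not on every probe set. Xbp1, Prdm1 and Irf4 did not show this pattern. The name antibody-secreting cell genes therefore describes what these genes are known for, and the 3 transcription factors did not mark LSK cells off from the LICs.

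**Figure D1:**
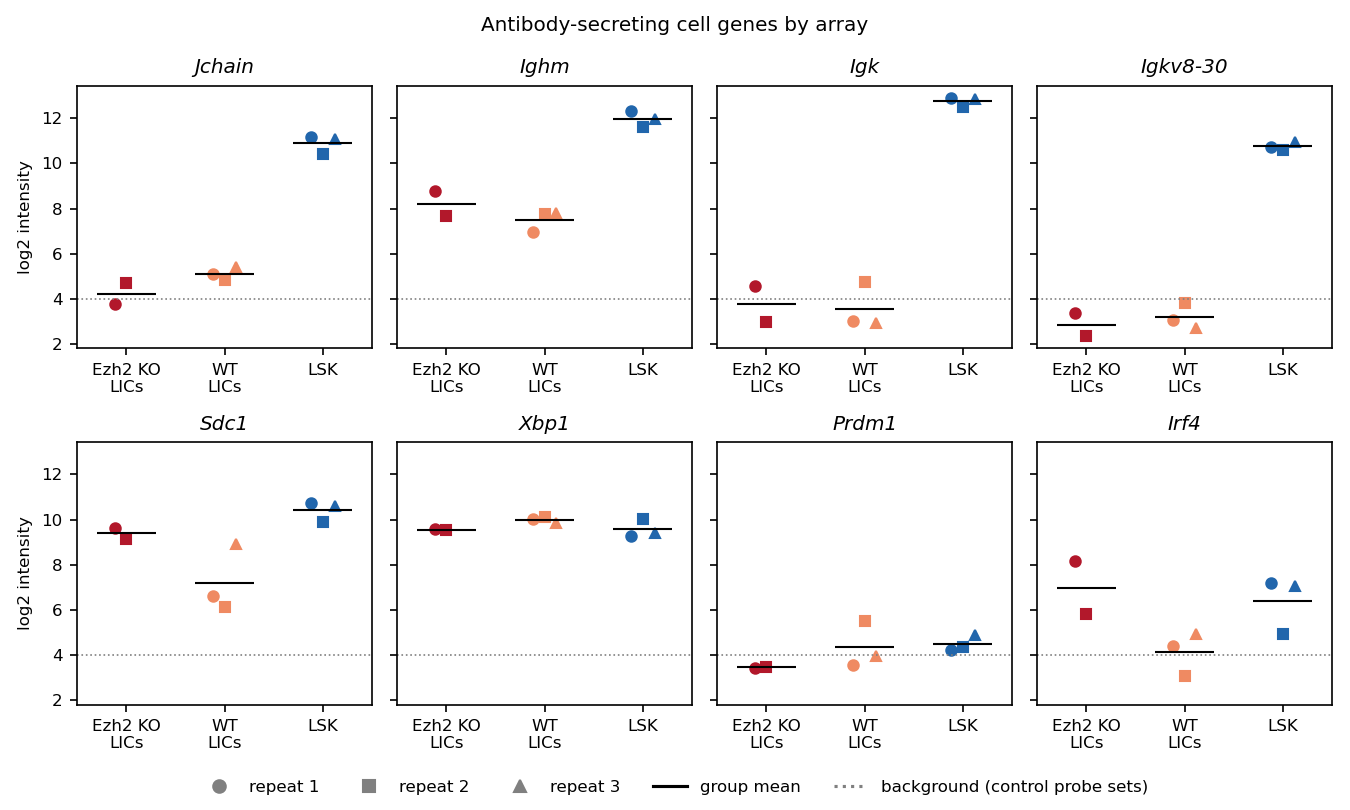
Log2 intensity of each of the 8 genes on every array, with Ezh2 KO LICs, WT LICs and LSK cells from left to right, the group mean as a bar and the highest control level (4.01) as a dotted line. The LSK arrays of Jchain, Ighm, Igk, Igkv8-30 and Sdc1 sit above all LIC arrays, whereas those of Xbp1, Prdm1 and Irf4 overlap them.

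Jchain, which joins IgM and IgA monomers, was at 3.76 and 4.70 in Ezh2 KO LICs, at 5.09, 4.83 and 5.44 in WT LICs and at 11.19, 10.40 and 11.09 in LSK cells. The lowest LSK array was 4.96 above the highest LIC array on the log2 scale. The difference from LSK cells was -6.66 (SE 0.36) in Ezh2 KO LICs and -5.77 (SE 0.32) in WT LICs, and these ranked 3 among all 12393 genes counted from the largest fall in each of the 2 comparisons, which share the LSK arrays. The 250 bases before the annotated start of Jchain are shown because Jchain is not a variable or constant antibody segment and has a promoter entry. They come from RefSeq (GRCm38.p6, chr5:88527898-88528147, minus strand) and hold none of the 4 motifs searched, which are described with Irf4.
Jchain promoter: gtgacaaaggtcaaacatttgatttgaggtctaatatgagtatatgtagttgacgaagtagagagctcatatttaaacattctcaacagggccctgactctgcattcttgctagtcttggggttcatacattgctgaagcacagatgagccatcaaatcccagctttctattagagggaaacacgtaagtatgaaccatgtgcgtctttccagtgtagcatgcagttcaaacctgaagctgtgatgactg

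Ighm, the heavy chain gene of IgM, was at 8.77 and 7.65 in Ezh2 KO LICs, at 6.96, 7.77 and 7.80 in WT LICs and at 12.33, 11.63 and 11.98 in LSK cells. The LSK arrays lay apart from the LIC arrays, and yet the LIC arrays were all well above the control level of 4.01. The difference from LSK cells was -3.77 (SE 0.41) in Ezh2 KO LICs and -4.47 (SE 0.36) in WT LICs. Of the 11 probe sets of Ighm, 9 were above the control level on no array. The other bright one read 8.18 and 7.56 in Ezh2 KO LICs, 5.19, 5.23 and 7.63 in WT LICs and 10.68, 9.88 and 10.34 in LSK cells. On this probe set WT LIC repeat 3 sat with the Ezh2 KO arrays and apart from the other WT LIC arrays.

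The kappa light chain gave the widest differences. Igk was at 4.59 and 2.98 in Ezh2 KO LICs, at 3.02, 4.74 and 2.95 in WT LICs and at 12.90, 12.49 and 12.83 in LSK cells. Both LIC means were under the control level, so Igk was at least 425-fold lower in Ezh2 KO LICs and at least 425-fold lower in WT LICs than in LSK cells, taken against that level. Igkv8-30 was at 3.39 and 2.35 in Ezh2 KO LICs, at 3.07, 3.81 and 2.72 in WT LICs and at 10.72, 10.61 and 10.96 in LSK cells. It was at least 108-fold lower in each kind of LIC than in LSK cells by the same bound. Igk and Igkv8-30 are not independent readings: the second is a segment within the locus named by the first, and probe sets for kappa segments can share transcripts. Of the 4 probe sets of Igk, 2 were above the control level on no array, and the fourth was above it on 1 LSK array alone, at 5.17.

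Sdc1, whose product CD138 is the surface marker by which plasma cells are usually sorted, was at 9.63 and 9.16 in Ezh2 KO LICs, at 6.61, 6.12 and 8.91 in WT LICs and at 10.74, 9.91 and 10.61 in LSK cells. The LSK arrays were above the rest by a narrow margin, 0.28 between the lowest LSK array and the highest LIC array. The Ezh2 KO arrays and WT LIC repeat 3 lay close under LSK cells, and the other WT LIC arrays lay well below. The difference from LSK cells was -1.03 (SE 0.76) in Ezh2 KO LICs and -3.21 (SE 0.68) in WT LICs. A second probe set of Sdc1 placed WT LIC repeat 3 elsewhere. It read 7.77 and 7.74 in Ezh2 KO LICs, 5.36, 4.59 and 3.35 in WT LICs and 9.02, 7.64 and 8.74 in LSK cells, so that repeat 3 was the lowest array there and the Ezh2 KO arrays overlapped LSK repeat 2. Of the 28 probe sets of the 8 genes, 8 had every LSK array above every LIC array, against 7.88% of all probe sets, and 12 were above the control level on no array.

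**Figure D2:**
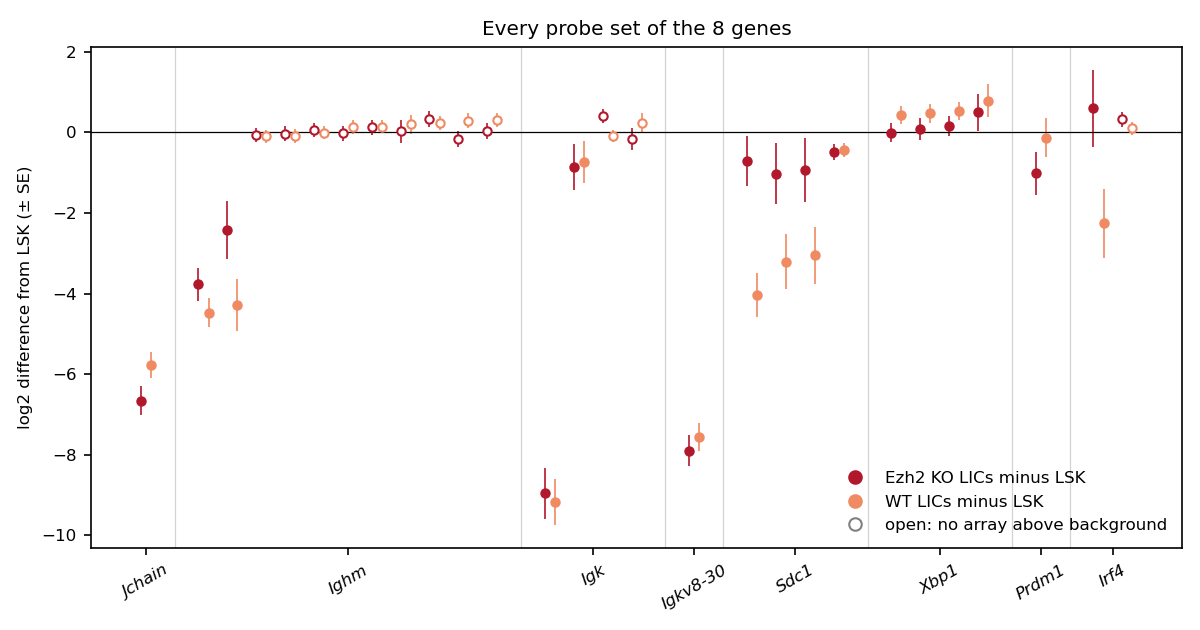
Log2 difference of Ezh2 KO LICs and of WT LICs from LSK cells, with the standard error of the fit as bars, for each of the 28 probe sets grouped by gene. Open points mark the 12 probe sets above the control level on no array, which lie near 0, while the probe sets of Jchain and Igkv8-30 and the bright ones of Ighm and Igk lie far below 0.

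The transcription factors gave another picture. Xbp1, whose spliced product drives the unfolded protein response and secretory capacity, was at 9.57 and 9.55 in Ezh2 KO LICs, at 10.04, 10.11 and 9.85 in WT LICs and at 9.26, 10.05 and 9.40 in LSK cells. Its LSK arrays overlapped the LIC arrays, with LSK repeat 2 among the WT LIC arrays and the other LSK arrays below all LIC arrays. The difference from LSK cells was -0.01 (SE 0.24) in Ezh2 KO LICs and 0.43 (SE 0.22) in WT LICs, and the arrays measure total Xbp1 RNA with no account of splicing.

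Prdm1, the gene of Blimp-1, was at 3.42 and 3.50 in Ezh2 KO LICs, at 3.56, 5.53 and 3.97 in WT LICs and at 4.21, 4.37 and 4.88 in LSK cells. Its single probe set was close to the control level on every array but WT LIC repeat 2, the highest of all. The difference from LSK cells was -0.13 (SE 0.48) in WT LICs. In Ezh2 KO LICs, whose mean was under the control level, it was at least 1.39-fold lower than in LSK cells.

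Irf4, needed for plasma cell differentiation and also for earlier B cell stages, was at 8.19 and 5.81 in Ezh2 KO LICs, at 4.40, 3.07 and 4.96 in WT LICs and at 7.18, 4.95 and 7.08 in LSK cells. LSK repeat 2 was level with WT LIC repeat 3, and the highest array of all was Ezh2 KO repeat 1. The difference from LSK cells was 0.59 (SE 0.95) in Ezh2 KO LICs and -2.26 (SE 0.85) in WT LICs. The other probe set of Irf4 was above the control level on no array. Promoter entries were found for 5 of the 8 members (Jchain, Sdc1, Xbp1, Prdm1 and Irf4), each 250 bases before to 50 after the start, and were searched on both strands for 4 motifs: the octamer ATGCAAAT, the XBP1 and ATF6 element TGACGTGG, the core GAAAGTG bound by Blimp-1, and the ETS-IRF composite element, which is GGAA and GAAA with any 2 bases between them. Of 32851 mouse promoters, 1.74% held the octamer, 0.676% the XBP1 and ATF6 element, 4.81% the Blimp-1 core and 2.72% the composite element. Among the 5 members the only match was a Blimp-1 core on the reverse strand at the start of Irf4. That stretch is shown with the match in capitals because Irf4 had the widest range over arrays of the 3 factor genes, and it runs to 20 bases after the start (RefSeq, GRCm38.p6, chr13:30748983-30749252, plus strand). A match of letters is a description and not a site of binding.
Irf4 promoter: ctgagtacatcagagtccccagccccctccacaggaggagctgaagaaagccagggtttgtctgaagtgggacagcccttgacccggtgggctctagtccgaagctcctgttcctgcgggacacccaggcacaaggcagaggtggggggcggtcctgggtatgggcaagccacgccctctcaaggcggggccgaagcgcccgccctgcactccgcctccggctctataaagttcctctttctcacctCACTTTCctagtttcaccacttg

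The LSK arrays were not alike in these genes. LSK repeat 2 was the lowest of the 3 for 6 of the 8 members and the highest for Xbp1. The spread between LSK arrays was 0.36 for Igkv8-30 and 0.41 for Igk, between 0.67 and 0.83 for Jchain, Ighm, Sdc1, Xbp1 and Prdm1, and 2.23 for Irf4, all on the log2 scale.

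The other antibody genes were read segment by segment. Beside the members, 39 probe sets are annotated to antibody heavy, kappa or lambda chains, of which 25 were at or under the control level on every array. Every LSK array was above every LIC array for 7 of the 39, against 7.88% of all probe sets. When all probe sets were fitted, none of the 39 was called between Ezh2 KO and WT LICs (limma, lowest adjusted p = 0.256), against 117 of all 22626. Of the 39, the 3 brightest in LSK cells carry the names of several kappa segments and of the kappa constant region, Igkc. No single gene can be named for them. They also list Igkv8-30, are not independent of it, and are among the 7. The brightest read 5.08 and 3.62 in Ezh2 KO LICs, 4.03, 5.38 and 3.06 in WT LICs and 13.25, 13.18 and 13.13 in LSK cells, almost level across LSK repeats.

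A few variable segments differed widely between LSK arrays, and those named here were chosen after their values were seen. Of the 39 probe sets, 3 had an LSK array at least 4 above another on the log2 scale, while Igkv8-30 spanned 0.36. Probe sets that list Igkv8-30 also list the constant region Igkc, so its even level cannot be read as that of a single variable segment. Igkv14-111, a kappa variable segment, was at 8.87, 3.08 and 8.25 in LSK repeats 1, 2 and 3, and between 2.20 and 3.38 on the LIC arrays. Igkv19-93, another kappa variable segment, was at 8.77, 4.01 and 3.91 in LSK repeats 1, 2 and 3, and between 3.73 and 3.97 on the LIC arrays. Thus Igkv14-111 was near background in LSK repeat 2, and Igkv19-93 was clearly above it in LSK repeat 1 alone. A probe set named for several lambda segments was highest in LSK repeat 2, at 9.28, against 5.44 and 4.45 in repeats 1 and 3, and was between 2.45 and 2.94 on the LIC arrays. A probe set of Iglv1, a lambda variable segment, was at 6.07, 7.52 and 3.55 in LSK repeats 1, 2 and 3.

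Of the other heavy chain classes, only IgA and IgG3 had probe sets named for them here, and neither was bright in LSK cells. The Igha probe sets, for the IgA heavy chain, read between 2.79 and 4.28 in LSK cells. On WT LIC repeat 2 they read 6.72, 6.37 and 5.83, above each other array. Among WT LIC arrays, Prdm1, Igk, Igkv8-30 and Xbp1 were also highest on repeat 2, with Igkv8-30 at 3.81, under the control level. Jchain, Sdc1 and Irf4 were lowest on that same array, at 4.83, 6.12 and 3.07. The 4 probe sets annotated to Ighg3 alone, an IgG heavy chain, were at or under 3.90 on each array. Ighv14-2, a heavy chain variable segment, was at 6.38 and 4.34 in Ezh2 KO LICs, between 2.68 and 3.00 in WT LICs and at 4.50, 4.54 and 6.14 in LSK cells.

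**Figure D3:**
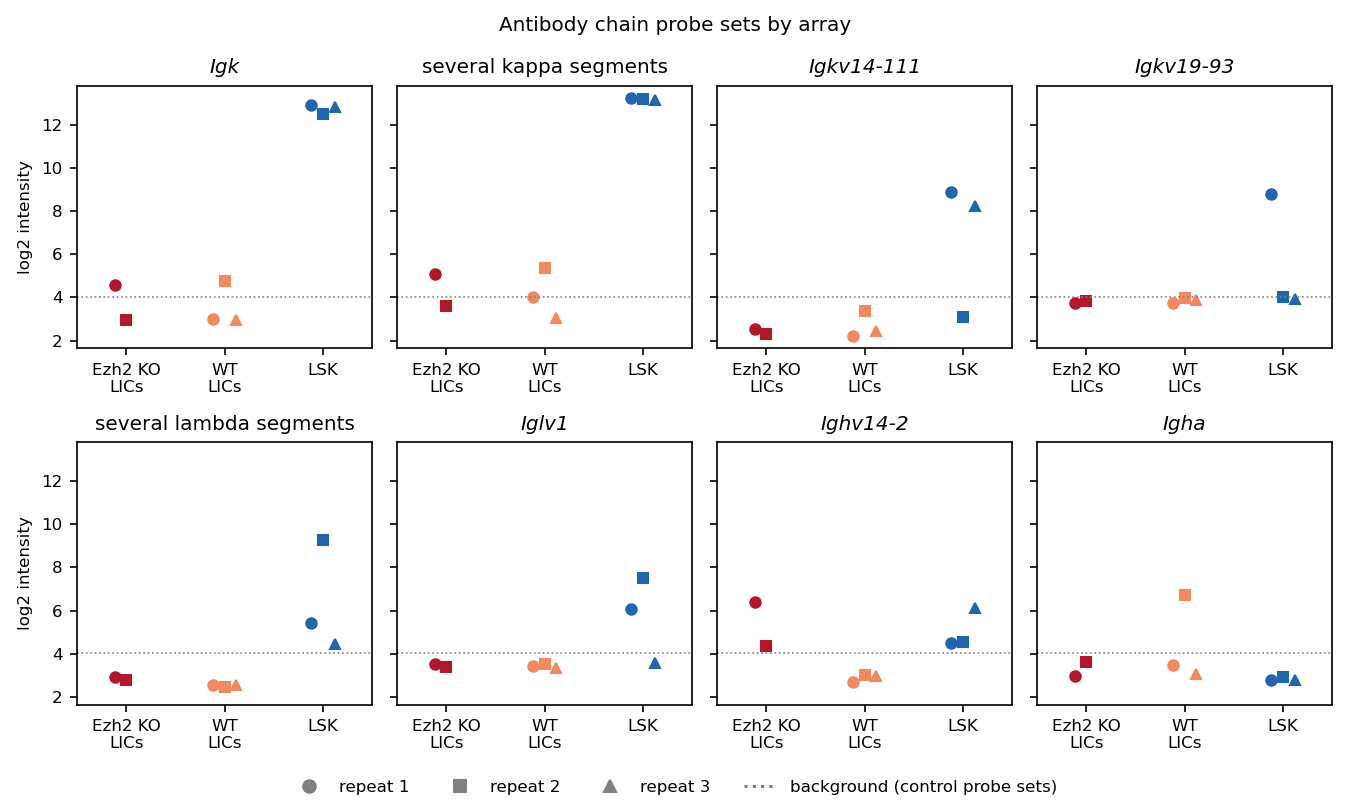
Log2 intensity on every array for 8 antibody chain probe sets, with Ezh2 KO LICs, WT LICs and LSK cells from left to right and the control level (4.01) as a dotted line. Igk and the probe set of several kappa segments are level across LSK repeats, while Igkv14-111, Igkv19-93, the lambda probe sets and Ighv14-2 differ between repeats of LSK cells, and Igha is bright on WT LIC repeat 2 alone.

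The comparison of Ezh2 KO with WT LICs asks what loss of Ezh2 does within leukaemic cells, and it was not the one that chose these genes, although it shares the WT LIC arrays with it. None of the 8 members passed the test (limma, adjusted p under 0.05), against 0.637% of all genes (0.589% higher and 0.0484% lower). At an unadjusted p under 0.05 there were 3, Irf4, Sdc1 and Jchain, against 11.1% of all genes. Both Ezh2 KO arrays lay above every WT LIC array for 2 members, Sdc1 and Irf4 (13.2% of all genes), and below every WT LIC array for 3, Jchain, Xbp1 and Prdm1 (16.6% of all genes).

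Irf4 differed by 2.85 (SE 0.95, 95% interval 0.64 to 5.07, adjusted p = 0.332), with the Ezh2 KO arrays 2.38 apart. Its adjusted p was 0.0346 with the repeat number as a block, and between that and 0.624 over the alternatives. Sdc1 differed by 2.18 (SE 0.76, interval 0.41 to 3.95, adjusted p = 0.361). Without WT LIC repeat 3 the difference was 3.03 (adjusted p = 0.0171), while the highest adjusted p of any alternative was 0.73. On the second Sdc1 probe set both Ezh2 KO arrays were above all WT LIC arrays, by a mean of 3.32 (SE 0.61, adjusted p = 0.0986 with all probe sets fitted). Another differed by 2.12 (SE 0.78, adjusted p = 0.417 in the same fit). The dimmest, between 4.13 and 5.03 over the arrays and so close to the control level, differed by -0.05 (SE 0.20).

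Jchain and the antibody chain genes gave smaller differences at their brightest probe sets. Jchain differed by -0.89 (SE 0.36, interval -1.72 to -0.05, adjusted p = 0.418) and Ighm by 0.71 (SE 0.41, interval -0.24 to 1.65, adjusted p = 0.559). The other bright probe set of Ighm differed by 1.85 (SE 0.72, adjusted p = 0.443 with all probe sets fitted), with WT LIC repeat 3 level with the Ezh2 KO arrays. For Igk the interval ran from -1.27 to 1.70 and for Igkv8-30 from -1.25 to 0.59, both with means near or under the control level in each kind of LIC. Xbp1 differed by -0.44 (interval -1.01 to 0.13, adjusted p = 0.548) and Prdm1 by -0.89 (interval -2.14 to 0.36, adjusted p = 0.578). For Jchain, Ezh2 KO repeat 1 was under the control level, and the difference was -0.53 with 16 added to each intensity before the log. Apart from that of Jchain, these intervals leave room for a rise or a fall. Missing the threshold does not show that the levels are alike.

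**Figure D4:**
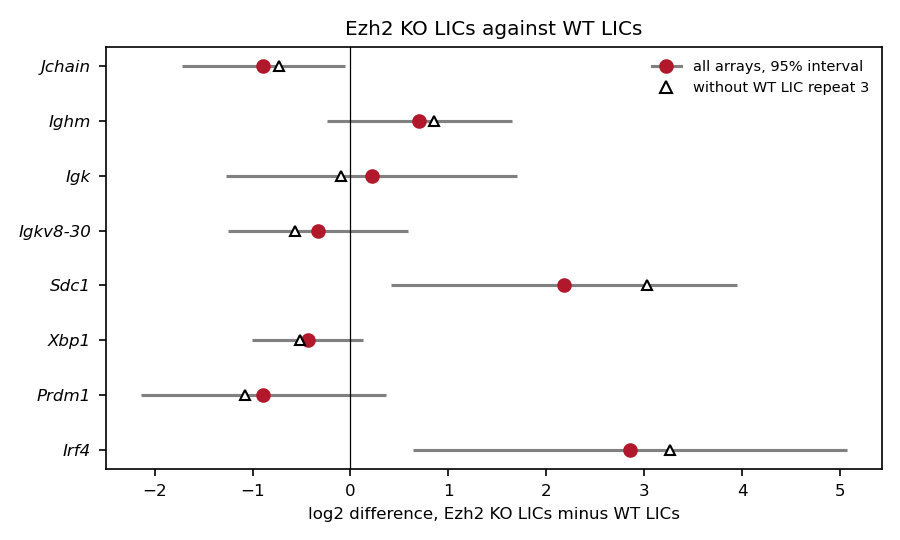
Log2 difference of Ezh2 KO LICs from WT LICs for the 8 genes, with the 95% interval of the fit as bars and open triangles for the difference without WT LIC repeat 3. The intervals of Sdc1, Irf4 and Jchain leave out 0 before adjustment over all genes, and Sdc1 stands at 2.18 with that array and at 3.03 without it.

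Other genes known from antibody-secreting cells were read from a list of 32 (the members aside), of which 25 were measured. In WT LICs against LSK cells none rose and 3 fell, against 3.42% of all genes called (1.27% higher and 2.15% lower), with a median difference of -0.28 against 0.02 over all genes. Those that fell were Il6ra, a receptor chain for the plasma cell survival factor interleukin-6, by 1.68 (SE 0.15, adjusted p = 0.00276), Zbtb20, a zinc finger factor of plasma cell survival, by 2.42 (SE 0.40, adjusted p = 0.0252), and Cd27, a costimulatory receptor also present on progenitors, by 0.99 (SE 0.18, adjusted p = 0.0326). Il6ra kept its call under all 16 alternatives, Zbtb20 lost it under 6 and Cd27 under 9, and leaving out single arrays moved the count of 3 between 1 (without LSK repeat 1, LSK repeat 3 or WT LIC repeat 2) and 5 (without WT LIC repeat 3). Tnfrsf17, which encodes the plasma cell receptor BCMA, was at 3.72 and 3.79 in Ezh2 KO LICs, 3.83 to 4.21 in WT LICs and 4.51 to 5.24 in LSK cells, all close to the control level (adjusted p = 0.0636 for WT LICs against LSK cells). The summed intensity of the 25 genes was 21069 to 21733 in Ezh2 KO LICs, 16446 to 20489 in WT LICs and 23239 to 25202 in LSK cells, with 22, 20 and 23 of them above the control level by group mean in these groups. Mzb1, a chaperone of antibody assembly, was not analysed here.

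The machinery of secretion did not follow the antibody chains. Of 68 measured genes of the secretory pathway and the unfolded protein response, 2 rose in WT LICs against LSK cells, none fell and 66 did not pass, with a median of 0.17. They were Creld2 (0.96, SE 0.18, adjusted p = 0.0363), which takes part in disulfide exchange in the endoplasmic reticulum, and Sdf2l1 (1.38, SE 0.28, adjusted p = 0.0465), a cofactor of the chaperone BiP. Neither call held when any single LSK or WT LIC array was left out. None of the 68 was called between Ezh2 KO and WT LICs (median -0.05, as over all genes) or between Ezh2 KO LICs and LSK cells (median 0.10). Derl3, a component of endoplasmic reticulum degradation that is abundant in plasma cells, was at 3.13 and 3.04 in Ezh2 KO LICs, 3.09 to 3.34 in WT LICs and 3.20 to 4.06 in LSK cells. The mean log2 level of the 68 genes stood between 9.72 and 9.94 on all 8 arrays.

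Markers of other B-lineage stages were read beside these genes. Of 25 measured mature B cell genes none was called in WT LICs against LSK cells (median -0.15). By group mean, 17 of the 25 were above the control level in Ezh2 KO LICs, 16 in WT LICs and 17 in LSK cells. Cd79b was among them, at 8.27 to 9.17 in WT LICs and 9.41 to 9.68 in LSK cells. Ms4a1 (CD20) and Pax5 were under the control level on every array, between 2.01 and 2.78. The summed intensity of these 25 was 5743 to 6625 in Ezh2 KO LICs, 2921 to 3599 in WT LICs and 4458 to 4733 in LSK cells. Of 16 pre-B cell genes none was called in WT LICs against LSK cells (median 0.06), with a summed intensity of 17782 to 21245 in Ezh2 KO LICs, 10340 to 14490 in WT LICs and 15506 to 18318 in LSK cells. Of 10 B cell genes that Blimp-1 silences none was called there either (median -0.13). The part of other B-lineage cells in the antibody chain differences was not tested.

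In Ezh2 KO against WT LICs some early B-lineage genes rose. Among the 16 of the pre-B cell list, 5 were called higher, none lower, and 11 missed the threshold (median 2.80, against -0.05 over all genes), among them Igll1, a surrogate light chain, by 5.23 (SE 0.47, adjusted p = 0.00753) and the recombinase gene Rag1 by 5.26 (SE 0.53, adjusted p = 0.00985). Of the 25 mature B cell genes 5 rose as well (Vpreb3, Spib, Cd79a, Ly6d and Blnk), and Vpreb3, Cd79a and Blnk stand in both lists, with Vpreb3 up by 4.29, Spib by 3.94 and Cd79a by 3.69 (SE 0.35, 0.33 and 0.34, adjusted p = 0.00753 each). Spib and Id3 rose among the 10 genes silenced by Blimp-1, Id3 by 1.55 (adjusted p = 0.0261). Pou2af1, the octamer coactivator that plasma cells need, was the only gene of the antibody-secreting cell list to rise, at 9.54 and 9.31 in Ezh2 KO LICs against 4.61, 3.03 and 3.05 in WT LICs, and it was at 5.01, 6.54 and 6.05 in LSK cells (difference from WT LICs 5.86, SE 0.58, adjusted p = 0.00985). Pou2af1 lost its call with the repeat number as a block (adjusted p = 0.058) and without Ezh2 KO repeat 2, Rag1 without Ezh2 KO repeat 2 or WT LIC repeat 1, and Id3 under 8 alternatives, Blnk under 7 and Ly6d under 5, whereas Igll1, Vpreb3, Spib and Cd79a kept theirs under all 16.

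**Figure D5:**
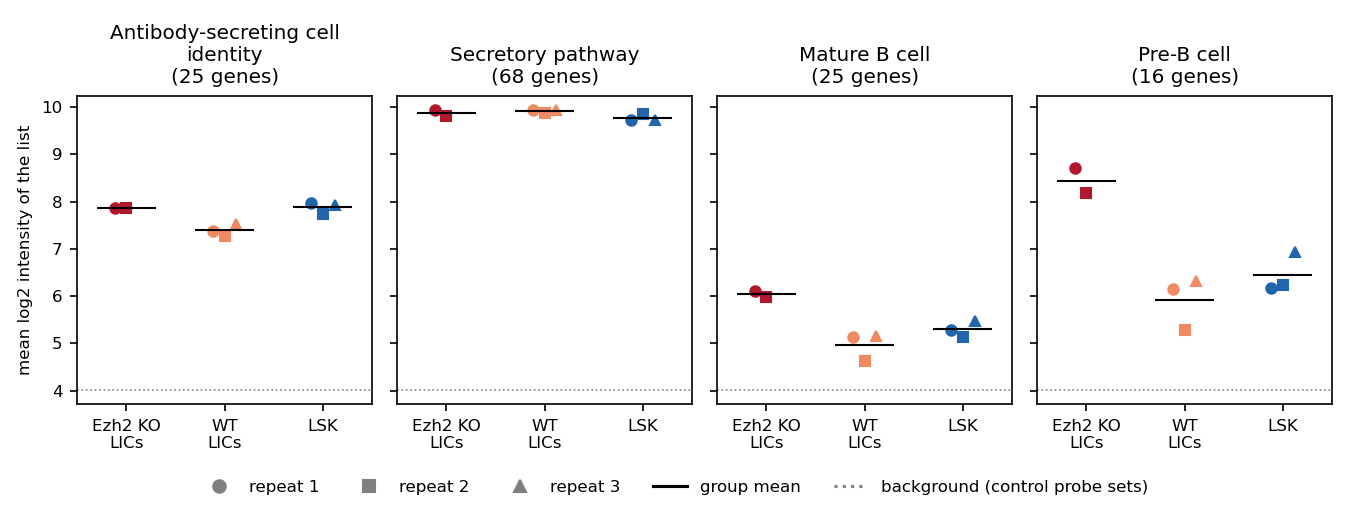
Mean log2 intensity of 4 gene lists on every array, with Ezh2 KO LICs, WT LICs and LSK cells from left to right, group means as bars and the control level (4.01) as a dotted line. The secretory pathway list stays between 9.72 and 9.94, and the pre-B cell list is highest on the Ezh2 KO arrays, at 8.18 and 8.70.

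Ezh2 KO LICs were set against LSK cells for the same lists, with 3.47% of all genes called (1.61% higher and 1.86% lower). Of the 25 antibody-secreting cell genes 4 fell, Cd27, Zbtb20, Il6ra and Tnfrsf17, and 1 rose, Pou2af1 by 3.56 (SE 0.58, adjusted p = 0.0253). Tnfrsf17 fell by 1.15 (SE 0.24, adjusted p = 0.0463) and lost this call under 12 of 15 alternatives. In this comparison Il6ra lost its call under 11 of 16 alternatives, Zbtb20 and Pou2af1 under 5 each and Cd27 under 1. Of the pre-B cell genes 6 rose and none fell (median 1.10), which is the opposite direction to Jchain and the antibody chains in the same arrays.

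Lists for cells outside the B lineage gave few calls in WT LICs against LSK cells. None was called among 18 T and NK cell genes (median 0.21), 12 of plasmacytoid dendritic cells (-0.19), 13 of macrophages (-0.09), 12 of neutrophils (0.60) or 10 of erythroid cells (0.50). Of 11 mast cell and basophil genes 2 rose, Tpsab1 by 1.54 and Cpa3 by 2.63 (adjusted p = 0.0118 and 0.04), with a median of 1.54, and of 13 stem and progenitor markers Kit and Hlf fell and Cd48 rose. Between Ezh2 KO and WT LICs the calls in these lists were those of Spib and Ly6d, both higher, in the dendritic cell list.

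The genes most like the members over the 8 arrays were ranked by Pearson's r with the mean of the centred members. The ranking took 6190 genes whose highest group mean was above the median of all genes, with the members and other antibody segments left out beforehand. In it 38 genes had r over 0.95 (35 for Jchain alone). The closest were Mgat1, an enzyme of N-glycan processing (r = 0.989), Ccnl2 (0.987), Serpini1 (0.984), Rras (0.983), Crebrf (0.983), Pdzk1ip1 (0.979), Plxnc1 (0.977) and the lipoprotein gene Apoe (0.977). For Jchain alone they were Pisd-ps3 (0.985), Paip2 (0.985), Mxd4 (0.980), Ccnl2 (0.980) and Nit1 (0.978). The 8 arrays fall into 3 groups, so r here follows the step between LSK cells and LICs, and Apoe for instance had a mean of 5.83 in Ezh2 KO LICs, 5.21 in WT LICs and 8.28 in LSK cells. None of these genes is in the antibody-secreting cell or secretory lists.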

How the data were processed

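The deposited table held linear intensity values of 22690 probe sets on 8 Affymetrix arrays, between 1.94 and 19343.1. RMA is the tool named per the submitters' processing notes, without its version, and the authors had brought the arrays to a common distribution, since sorted log2 values differed between arrays by an SD of at most 0.0815. Whether background was corrected is not stated there. Per the labels' protocols, cDNA was made with SPIA amplification.

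Intensities were turned into log2 with no pseudocount. Control probe sets (64) were left out, and 20380 with 1 symbol gave 12393 genes, each taken at its brightest probe set (annotation of the platform, symbols updated through RefSeq). The control level, 4.01, is the highest mean among 27 Bacillus control probe sets. One model of all 3 groups was fitted with limma 3.58.1 (R 4.3.3), with 2-sided tests, and a gene was called where its p, adjusted over all genes by Benjamini-Hochberg, was under 0.05. The script was tested on simulated data. No exact permutation test was run, because with 3 arrays a group it cannot give a p below 0.1.

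The members and the 12 gene lists were chosen with earlier results of these data known. Named were all members, up to 6 called genes of a list by smallest p, fixed markers, and the genes most like the members. The labels call repeats biological. No scan batch is given, so batch and group cannot be told apart. Precision is limited by the number of arrays, with a median SE of 0.23 between Ezh2 KO and WT LICs. Alternatives were scaling, filter, probe set choice, prior, arrays fitted, pseudocount, block and left-out arrays.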

Additional observations from a re-analysis of the deposited data

How the results depend on the processing

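The differences of Jchain, Ighm, Igk, Igkv8-30 and Sdc1 from LSK cells stayed negative under all alternatives. With single arrays left out, WT LICs minus LSK cells ranged from -6.02 to -5.62 for Jchain and from -4.06 to -2.66 for Sdc1. With the mean of all probe sets, Ighm changed by -0.70 and Igk by -2.44, with 9 of 11 and 2 of 4 probe sets above the control level on no array. Between Ezh2 KO and WT LICs, Igk turned to -0.59 without Ezh2 KO repeat 1, to -0.06 without WT LIC repeat 1 and to -0.09 without WT LIC repeat 3, with a range of -0.59 to 1.02 over left-out arrays, and Igkv8-30 to 0.19 without Ezh2 KO repeat 2 (range -0.85 to 0.19); none was called, and the cause was not tested.

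The number of members called between Ezh2 KO and WT LICs was 0, and 1 with the replicate block (Irf4), with 0 to 1 when single arrays were left out. Genes called in that comparison numbered 79, against 35 with the compared groups alone and 36 with the replicate block, and 25 to 146 with single arrays left out. For WT LICs against LSK cells 424 were called, 252 with the replicate block and 176 to 643 with arrays left out. For Ezh2 KO LICs against LSK cells 430 were called, 147 with the replicate block, 663 of all probe sets, and 118 to 643 with arrays left out. Secretory genes called numbered 2, then 4 among genes above the 40th percentile, with the mean of probe sets, with the trended robust prior and with 16 added, 1 with the compared groups alone, with the block and with all probe sets, and 0 to 1 with arrays left out. Antibody-secreting cell genes called numbered 3, then 5 with the filter, the trended prior and 16 added, and 1 to 5 with arrays left out. Of these calls 1 was higher with median centring (3 called) and 1 with 16 added (5 called), and none in any other setting. Without WT LIC repeat 3 the counts of 146 and 643 were reached; without WT LIC repeat 1 they were 25 and 176. Median centring moved the median of all genes for WT LICs against LSK cells to 0.15, where it had been 0.02, and the higher share of its calls to 58.3%, where it had been 37.0%; for Ezh2 KO LICs against LSK cells the median moved to 0.11 (before, -0.02) and the share to 66.6% (before, 46.5%). Deviations of same-numbered arrays correlated between -0.05 and 0.14. With 2 or 3 arrays a group, these values cannot decide whether the repeat numbers behind the block pair the arrays. The causes were not tested beyond the fewer arrays or genes that each setting holds.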
